A study of Mus musculus with 12 samples.

Results

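The genes described here are 10 immediate early response genes, Fos, Fosb, Jun, Junb, Egr1, Egr2, Ier2, Atf3, Dusp1 and Ccn1, measured in whole mouse spleen. They were taken by name, with earlier results of these data known. Every probe set whose single gene symbol in the platform annotation was one of these names was taken, which gave 15 of the 45101 probe sets on the array. Of these, 13 probe sets covering 9 genes reached a scaled signal of 100 on at least 3 of the 12 arrays and were tested, among 27041 probe sets tested in all. The single Fosb probe set and 1 of the 4 Ccn1 probe sets were not tested. Where a gene had several probe sets, the one with the highest mean signal stood for the gene, and 12326 genes had such a probe set among those tested. Signals of different probe sets are not on a common scale, so levels were compared between arrays and never between genes.

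The 12 spleens came from 12 BALB/c mice in 4 groups of 3. Wild-type mice (wt) and mice deficient in Il1rn (ko) were taken at 1 month and at 4 months of age. Il1rn encodes the secreted antagonist of the interleukin-1 receptor, and BALB/c mice without it are known to develop arthritis spontaneously. The series was made to find genes tied to separate phases of that arthritis. Each array holds the biotin-labelled total RNA, extracted with Trizol, of the whole organ from 1 mouse. The labels give neither sex, litter, joint scores nor the time between death and freezing. On the brightest of its 3 probe sets, Il1rn itself gave 120 to 278 in the 6 wt spleens and 5.64 to 40.8 in the 6 ko spleens. The second separated the genotypes as well (81.2 to 208 against 34.6 to 78.3), and the dimmest overlapped. The spleen stroma factors Tlx1 and Nkx2-5 were among the probe sets that passed the filter. In whole organs, fewer cells of a type and less RNA per cell cannot be told apart.

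Immediate early genes are transcribed within minutes of a signal at the cell surface, without new protein synthesis, by factors already present in the cell. Kinase cascades activate the serum response factor, its ternary complex partners and CREB at their promoters, and most of the messages are then degraded quickly. In spleen they are known to respond to antigen receptor signalling, cytokines, stress and the handling of the tissue. Their products differ in role. Fos, Fosb, Jun and Junb form the AP-1 transcription factor, Egr1 and Egr2 are zinc finger factors, Atf3 is a stress-induced member of the ATF family, and Ier2 is a nuclear protein of the early response. Dusp1 is a phosphatase that switches off the p38 and JNK kinases, and Ccn1 is a matrix protein secreted mainly by stromal and endothelial cells.

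The upstream sequences of the genes that the results turn on are shown because these genes share a mode of induction and yet differed in the direction of their changes in these spleens. RefSeq promoters of GRCm38.p6 were at hand for 8 of the 10 genes, and for neither Egr1 nor Ier2. Each sequence is the 150 bases before a listed transcription start, read 5′ to 3′ on the gene's strand. They lie at chr4:95052223-95052372 (minus strand, Jun), chr8:84978749-84978898 (minus strand, Junb), chr10:67537719-67537868 (plus strand, Egr2), chr17:26508473-26508622 (minus strand, Dusp1) and chr3:145649986-145650135 (minus strand, Ccn1). Egr2 has several listed starts, and the one shown has both TGACG and a CArG box upstream. Capitals mark TGACG on either strand, the core of the CREB and ATF element and part of its full palindrome TGACGTCA, together with the TATA box letters TATAAA and the CArG box bound by serum response factor.
Jun: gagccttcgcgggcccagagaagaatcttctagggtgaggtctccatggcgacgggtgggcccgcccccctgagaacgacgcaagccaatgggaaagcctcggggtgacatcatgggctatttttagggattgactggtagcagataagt
Junb: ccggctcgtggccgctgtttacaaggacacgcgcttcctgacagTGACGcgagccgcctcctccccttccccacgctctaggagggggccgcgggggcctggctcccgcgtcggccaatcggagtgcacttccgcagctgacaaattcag
Egr2: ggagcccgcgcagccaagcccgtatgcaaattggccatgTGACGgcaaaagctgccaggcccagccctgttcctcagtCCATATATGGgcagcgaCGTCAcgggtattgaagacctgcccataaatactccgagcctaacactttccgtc
Dusp1: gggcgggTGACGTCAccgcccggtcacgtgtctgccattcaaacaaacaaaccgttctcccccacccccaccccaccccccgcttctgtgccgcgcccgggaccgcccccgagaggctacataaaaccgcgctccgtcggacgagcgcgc
Ccn1: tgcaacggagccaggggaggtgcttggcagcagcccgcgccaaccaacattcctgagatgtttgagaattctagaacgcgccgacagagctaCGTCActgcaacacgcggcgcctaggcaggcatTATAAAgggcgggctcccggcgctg

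Over the 250 bases before each start, on both strands, TGACG was present in 7 of the 8 genes (Fos, Fosb, Junb, Egr2, Atf3, Dusp1 and Ccn1) and in 17.8% of 32851 mouse promoters of the same length. The palindrome TGACGTCA, which contains TGACG, was found only in Dusp1 among the 8, and in 1.55% of all promoters. TATAAA stood in Fos and in Ccn1, where it lay 25 to 20 bases before the start, and in 12.4% of all promoters. The CArG box was found only in Egr2 among the 8, against 1.47% of all promoters. The GC box letters GGGCGG, not capitalised above, were in 7 of the 8 genes and in 32.7% of all. The member counts are per gene, and the shares of all promoters are per promoter (32851 promoters of 27025 genes). A member gene was counted if any of its listed starts had the motif. Egr2 has several listed starts, and not all of them have each motif counted for it. Member counts and shares are therefore in different units and cannot be compared directly. A match describes letters in a window and is not evidence of binding.

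Some facts of the arrays touch these genes. The highest signal on an array was 33427 to 37921 on 6 arrays and 51247 to 68987 on the other 6, and all ko spleens at 1 month belong to the first set. Each of the other 3 groups has 1 array in the first set (replicate 3 of wt at both ages and replicate 2 of ko at 4 months) and 2 in the second. The labels name no batch that matches this division. Markers of 9 neutrophil granule and S100 genes were higher in ko at both ages (9 of 9 passing the test at each), with summed signals of 43788 to 53762 in wt and 125609 to 155731 in ko at 1 month, and of 9653 to 14565 in wt and 51651 to 68824 in ko at 4 months. The 6 erythroid genes tested were all called higher in ko at 4 months. Summed B cell markers were 25207 to 28047 in wt and 18436 to 21656 in ko at 1 month, and 41603 to 49330 and 33222 to 41850 at 4 months. The ratio of 3′ to 5′ actin signal was 1.07 to 1.20 on 11 arrays and 1.37 on wt replicate 1 at 4 months. Replicate 2 of the same group carried pancreas genes at a summed signal of 83803, against 1214 to 2474 on the other 11 arrays. The part of these differences in the results below was not tested, except where a value is given without an array or within an array set.

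**Figure D1:**
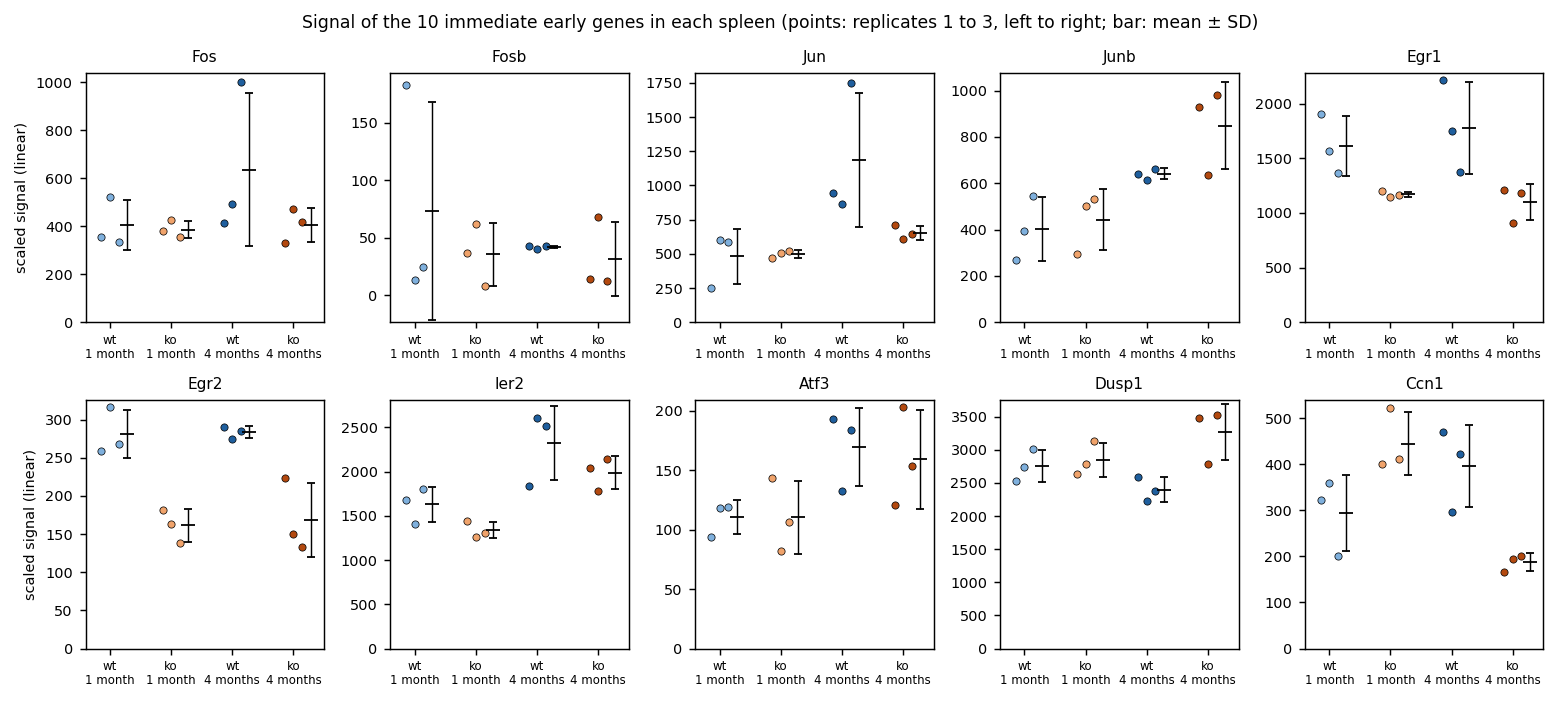
Scaled signal (linear, each panel with its own axis) of the 10 genes in the 12 spleens, by genotype and age. Points are replicates 1 to 3 from left to right and bars give the mean ± SD of 3 arrays. Egr1 and Egr2 are lower in all 6 ko spleens than in any wt spleen, Jun is highest in wt at 4 months, and Ccn1 is lowest in ko at 4 months.

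Differences between groups were tested with limma on log2 values, and a gene was called at an adjusted p under 0.05 over all 27041 probe sets. Of the 9 genes tested, 0 were called between ko and wt at 1 month (3 had an unadjusted p under 0.05, against 16.9% of all genes), where 0.617% of all genes were called. Without wt replicate 3 at 1 month, 5.88% of all probe sets were called in that comparison in place of 0.444%, and still 0 of the 9 genes by limma. At 4 months Ccn1 alone was called, lower in ko, against 2.96% of all genes and 0.479% called lower. From 1 to 4 months, Jun and Ier2 rose in wt spleens, where 24.1% of all genes were called, 12.6% upward. In ko spleens Junb and Ier2 rose and Ccn1 fell over the same interval, against 26.6% of all genes called, 15.7% upward and 10.9% downward. Calls with age were therefore about as frequent among the 9 genes as among all genes. Over both ages, a comparison added after the values were seen, Egr1 and Egr2 were lower in ko, against 6.34% of all genes called and 2.45% called lower.

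**Figure D2:**
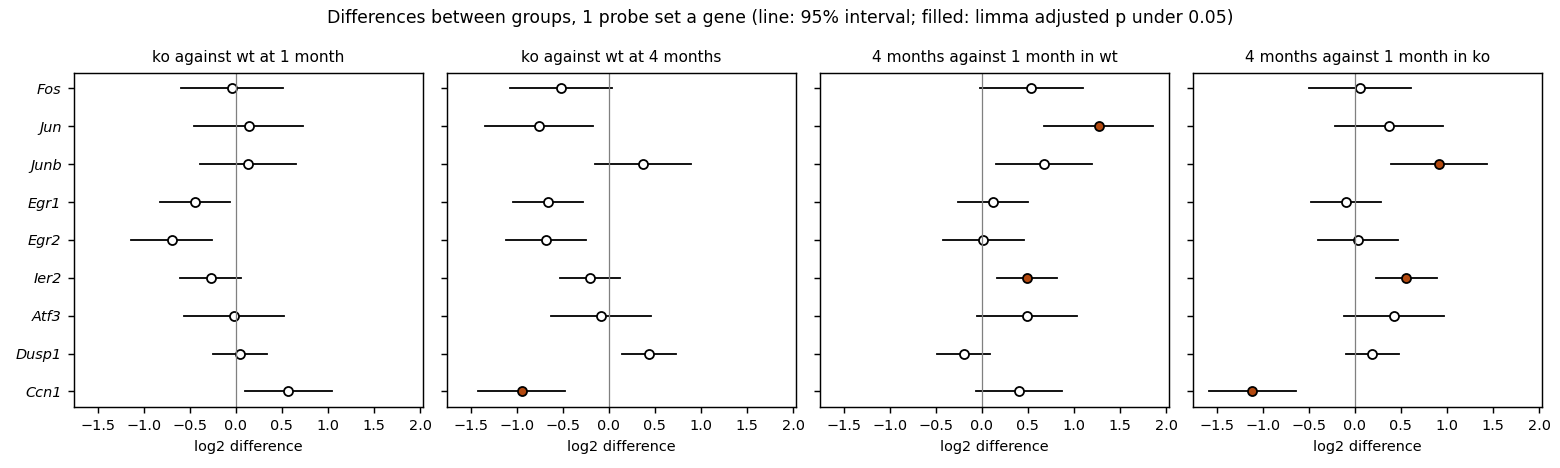
Log2 difference (x axis) of the 9 tested genes in 4 comparisons, with 95% intervals as lines. Filled points are the 6 differences with a limma adjusted p under 0.05: Ccn1 between genotypes at 4 months, Jun and Ier2 with age in wt, and Junb, Ier2 and Ccn1 with age in ko.

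The median log2 difference of the 9 genes between ko and wt was -0.02 at 1 month and -0.52 at 4 months, beside -0.02 and 0.02 over all genes. With age it was 0.49 in wt and 0.19 in ko, beside 0.08 and 0.09 over all genes. These medians join genes that moved in opposite directions: at 4 months Jun, Egr1, Egr2 and Ccn1 were lower in every ko spleen than in any wt spleen, and Dusp1 was higher. Such separation of 3 arrays from 3 was seen in 23.8% of all genes in that comparison, 10.5% downward and 13.3% upward. At 1 month Egr1 and Egr2 were lower and Ccn1 higher in every ko spleen, where 20.6% of all genes separated, 11.7% downward and 8.97% upward.

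Among the AP-1 subunits, Fos was level across 11 of the 12 spleens. Its signals were 358, 523 and 333 in wt at 1 month and 379, 425 and 355 in ko at 1 month. At 4 months they were 412, 494 and 1003 in wt and 329, 471 and 417 in ko. The 11 other arrays lie between 329 and 523, and wt replicate 3 at 4 months stands alone at 1003. The log2 difference of ko from wt at 4 months was -0.52 (SE 0.26, limma adjusted p = 0.347), and -0.16 without that array, the highest of its group. The rise of the wt mean from 405 ± 104 to 636 ± 320 (SD, n = 3 each) did not pass the test either (log2 difference 0.54, SE 0.26, limma adjusted p = 0.157). Without wt replicate 3 at 4 months it was 0.17 (limma adjusted p = 0.636). Within the upper array set it was 0.06 (limma adjusted p = 0.913). In the lower set it was 1.5, between 1 wt array of each age, the older being replicate 3, so its call there (limma adjusted p = 0.00989) takes its spread from the ko arrays at 1 month. Fos was called in none of the comparisons over all 12 arrays.

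Fosb, which can replace Fos as the partner of a Jun protein, lay under the filter on 11 of 12 arrays. The exception was wt replicate 1 at 1 month at 183, beside 12.9 and 24.5 in the other mice of that group. In ko at 1 month the probe set gave 36.3, 62.1 and 7.74. In the older mice it gave 42.6, 40.4 and 42.4 in wt and 13.6, 68.1 and 11.9 in ko. With 1 array above the filter level, it was not among the probe sets tested.

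Jun, the main partner of Fos in AP-1, rose with age in wt spleens. On its brighter probe set the signals were 252, 601 and 589.7 in wt at 1 month and 948, 864 and 1746 in wt at 4 months. All 3 older wt spleens lie above all 3 younger ones, and replicate 3 is the highest here too. The rise was 2.41-fold (log2 difference 1.27, SE 0.28, limma adjusted p = 0.00445). It was called in every one of 28 alternative settings, including the one without wt replicate 3 at 4 months (0.96, limma adjusted p = 0.024).

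The ko spleens gave 467, 506 and 524 for Jun at 1 month and 709, 609 and 646 at 4 months. The older ko spleens were again all above the younger ones, with a difference that did not pass the test (limma adjusted p = 0.374). At 4 months every ko spleen was below every wt spleen, by a log2 difference of -0.76 (SE 0.28, limma adjusted p = 0.186). Without wt replicate 3 that difference was -0.45, and it was -0.40 within the upper array set. The lower set holds only wt replicate 3 and ko replicate 2 at this age, which differ by -1.47, and the limma adjusted p of 0.0274 there takes its spread from the ko arrays at 1 month. The change of the genotype difference from 1 to 4 months was -0.90 (SE 0.39, limma adjusted p = 0.539).

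The second Jun probe set followed this only in part. It gave 364, 597 and 304 in wt at 1 month and 440.2, 399 and 662 in wt at 4 months. These groups overlap, and its log2 difference with age in wt was 0.25 (SE 0.24, limma adjusted p = 0.491). In ko it gave 363, 325 and 271 at 1 month and 381, 269 and 344 at 4 months. As on the first probe set, all ko spleens at 4 months were below the wt spleens of that age (-0.53, SE 0.24, limma adjusted p = 0.289). The log2 values of the 2 probe sets had a Pearson r of 0.57 over the 12 arrays, so the rise of Jun with age rests on 1 probe set.

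Junb, an AP-1 subunit that often opposes Jun, was called higher with age in ko spleens and was not lower in ko at 4 months. It was higher with age in wt as well, short of a call. The change of its genotype difference between the ages was 0.23 (95% interval -0.51 to 0.97, limma adjusted p = 0.888). Junb signals were 293, 503 and 532 in ko at 1 month and 929.9, 635 and 982 in ko at 4 months, without overlap. The rise was 1.88-fold (log2 difference 0.91, SE 0.25, limma adjusted p = 0.0144). The call was lost without ko replicate 1 at 1 month (limma adjusted p = 0.0818) and without ko replicate 1 (0.0643) or 3 (0.0702) at 4 months, each also an adjusted p. Centring the arrays on their median gave a limma adjusted p of 0.0524, and the lower array set alone 0.301.

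In wt, Junb gave 269.6, 393 and 545 at 1 month and 641, 616 and 663 at 4 months. The 3 older wt spleens were close to each other and all above the younger ones. This difference fell just short of the call (log2 difference 0.68, SE 0.25, limma adjusted p = 0.0604) and was called without wt replicate 3 at 1 month (0.91, limma adjusted p = 0.0162), without ko replicate 1 at 1 month (limma adjusted p = 0.0418) and in the upper array set (0.88, limma adjusted p = 0.0258). Without wt replicate 1 at 1 month it was 0.44 (limma adjusted p = 0.265), and in the lower array set 0.27 (limma adjusted p = 0.726). Separation of the 2 ages was seen for Jun, Junb, Ier2 and Atf3 in wt, all upward, against 34.2% of all genes in either direction and 19.3% upward. In ko it was seen upward for Jun, Junb and Ier2 and downward for Ccn1, against 50.4% of all genes, 30% upward and 20.4% downward.

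The spleen with the highest Fos and Jun also had the highest heat shock signal. Hspa1b, an inducible chaperone of the Hsp70 family, gave 3649, 3543 and 15762 in wt at 4 months and 501, 356 and 519.8 in ko at 4 months. At 1 month it gave 134, 329.8 and 849.8 in wt and 1208, 1650.5 and 1263 in ko. The mean of 19 heat shock genes in wt replicate 3 at 4 months deviated from its group by 0.72 on the log2 scale, where Fos deviated by 0.73 and Jun by 0.62. In replicates 1 and 2 of that group the heat shock deviations were -0.50 and -0.22, those of Fos -0.49 and -0.24, and those of Jun -0.24 and -0.37. Of the 19 genes, 0 rose and 6 fell in ko against wt at 4 months, with Dnajb1, Dnaja1, Hspa1b and Hspa1a having the smallest p. With age 8 rose and 1 fell in wt, and 0 rose and 8 fell in ko. Their summed signal was 98367 to 102817 in wt and 109236 to 118437 in ko at 1 month, and 103464 to 192160 in wt and 75058 to 83346 in ko at 4 months. In these comparisons 2.96% of all genes were called at 4 months (0.479% lower), and 24.1% with age in wt and 26.6% in ko. Over the 12 arrays, the deviations of the heat shock mean had a Pearson r of 0.80 with those of Fos, 0.75 with those of Jun and -0.78 with those of Egr1. For the other tested genes r ran from -0.06 (Ccn1) to 0.47 (Ier2). Outside wt at 4 months the heat shock deviations lay between -0.18 and 0.17, so the 3 large values rest mostly on that group. The part of the heat shock signal in the Fos, Jun and Egr1 values was not tested beyond leaving out that array.

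**Figure D3:**
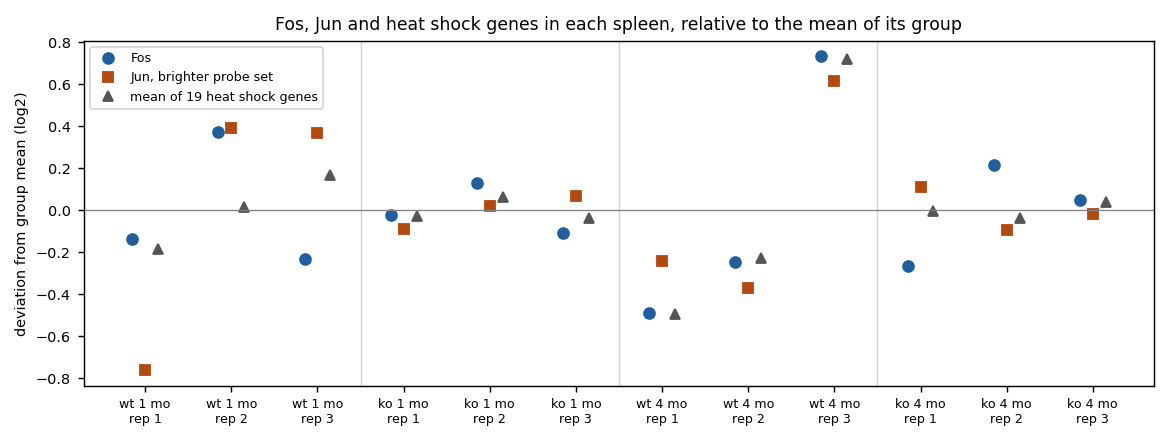
Deviation of each spleen from the mean of its group (log2, y axis) for Fos, Jun and the mean of 19 heat shock genes, for the 12 arrays along the x axis. In wt replicate 3 at 4 months the 3 measures lie together at 0.62 to 0.73, while Jun is lowest, at -0.76, in wt replicate 1 at 1 month without a like value of the heat shock mean (-0.18).

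Egr1 and the brighter Egr2 probe set passed the test as lower in ko only when the ages were joined, and at neither age alone. Egr1, a factor induced by ERK signalling and by antigen receptors, gave 1908, 1565 and 1368 in wt at 1 month and 1196, 1145 and 1168 in ko at 1 month. The older spleens gave 2213, 1749.8 and 1369.7 in wt and 1212, 912 and 1182 in ko. Every one of the 6 ko spleens was below every one of the 6 wt spleens. The younger mice differed by -0.44 on the log2 scale (SE 0.18), with a limma adjusted p of 0.248. For the older mice the value was -0.66 (SE 0.18), with a limma adjusted p of 0.0694. Joining the ages gave -0.55 (SE 0.13, limma adjusted p = 0.0231), which is 1.46-fold lower in ko.

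That call for Egr1 was lost when 1 of 5 spleens was left out. The limma adjusted p was 0.0548 without ko replicate 2 and 0.0616 without ko replicate 3 at 1 month. It was 0.0547 without wt replicate 2 at 1 month, 0.0581 without ko replicate 2 and 0.0524 without wt replicate 1 at 4 months. The call was also lost without the intensity trend (limma adjusted p = 0.0593). The log2 difference ranged from -0.64 to -0.47 when each array was left out, and was -0.40 within the lower array set. At 1 month it was -0.17 with the array set as a block and -0.22 within the lower set, where wt replicate 3 is the only wt spleen of that age. The 4-month value was -0.57 within the lower set and -0.70 within the upper one, and was called with the array set as a block (limma adjusted p = 0.0148) or without wt replicate 3 (-0.83, limma adjusted p = 0.0417).

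Egr2, a factor of lymphocyte development and of T cell tolerance, behaved alike on its brighter probe set. It gave 258, 316 and 268 in wt and 182, 164 and 138 in ko at 1 month. The signals at 4 months were 291, 275 and 285 in wt and 223, 150.03 and 133 in ko. Again all 6 ko spleens were below all 6 wt spleens, with means that hardly moved with age (281 ± 31.2 and 284 ± 8.0 in wt, 161 ± 22.1 and 169 ± 48.1 in ko, SD, n = 3). Neither age alone passed the test, with -0.70 on the log2 scale for the younger mice (SE 0.21) and -0.68 for the older (SE 0.21), and limma adjusted p of 0.133 and 0.103. Joining the ages gave -0.69 (SE 0.15, limma adjusted p = 0.0151), 1.61-fold lower in ko. The last call was lost without ko replicate 3 at 1 month (limma adjusted p = 0.0542) and within the lower array set (-0.72, limma adjusted p = 0.152). At 1 month the difference was -0.64 with the array set as a block. Complete separation of 6 from 6 spleens was found for these 2 of the 9 genes, and in 0.909% of all genes (0.479% downward).

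The other Egr2 probe set did not show this. It gave 177, 209 and 281 in wt and 178, 229.8 and 126 in ko at 1 month, and 108, 111 and 225 in wt and 149, 208 and 49.9 in ko at 4 months. The genotypes overlap at both ages, and the log2 difference over both was -0.23 (SE 0.25, limma adjusted p = 0.633). The 2 probe sets had a Pearson r of 0.34 over the 12 arrays, so the lower Egr2 in ko rests on 1 probe set.

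Egr3, the family member nearest to Egr2 in its known roles, was also lower in ko. It gave 1597, 1773 and 1569 in wt and 1156, 1143 and 799 in ko at 1 month, and 1803, 1426 and 1692 in wt and 994, 1202 and 1014 in ko at 4 months. All 6 ko spleens were below all 6 wt spleens, by a log2 difference of -0.64 over both ages (SE 0.11, limma adjusted p = 0.00612). The call held whichever array was left out, and not within the lower array set alone (limma adjusted p = 0.237). Nab2, a corepressor that binds EGR proteins and is itself an EGR target, was lower in ko over both ages as well (-0.62, SE 0.17, limma adjusted p = 0.0417), with overlap at 1 month. It gave 271, 288 and 422 in wt and 212, 274 and 198 in ko at 1 month, and 731, 512 and 633 in wt and 511, 277 and 292 in ko at 4 months. Its call held in only 3 of the 12 fits with 1 array left out (limma adjusted p of up to 0.117, without ko replicate 3 at 1 month). The neutrophil markers given above differed between the genotypes at both ages. The summed B cell markers separated them at 1 month and overlapped at 4 months. The part of these cells in the EGR differences was not tested.

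**Figure D4:**
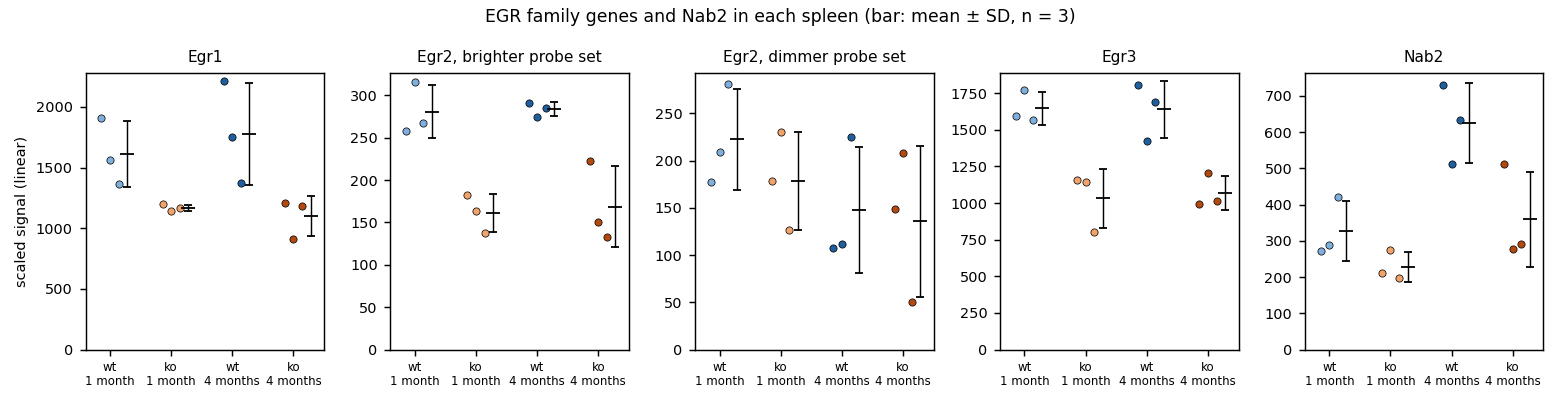
Scaled signal (linear, each panel with its own axis) of Egr1, both Egr2 probe sets, Egr3 and Nab2 in the 12 spleens; points are arrays and bars the mean ± SD of 3. Egr1, Egr2 on its brighter probe set and Egr3 separate all ko from all wt spleens, while the second Egr2 probe set and Nab2 overlap.

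Ier2, a short-lived nuclear protein of the early response, rose with age in both genotypes, with calls that several single arrays and settings removed. It gave 1678, 1412 and 1802 in wt at 1 month and 1839, 2604 and 2522 in wt at 4 months. In ko it gave 1437, 1264 and 1312 at 1 month and 2044, 1786 and 2139 at 4 months. The ages did not overlap in either genotype. The log2 difference was 0.49 in wt (SE 0.16, limma adjusted p = 0.0333) and 0.56 in ko (SE 0.16, limma adjusted p = 0.0163), that is 1.41-fold and 1.47-fold, and the change of genotype difference between ages was 0.07 (95% interval -0.40 to 0.53). In wt the call was lost without wt replicate 1 (limma adjusted p = 0.069) or 2 (0.114) at 1 month and without wt replicate 2 (0.113) or 3 (0.107) at 4 months, all adjusted p. In ko it was lost without ko replicate 2 (limma adjusted p = 0.0664) or 3 (0.05) at 1 month and without ko replicate 1 (0.062) or 3 (0.0739) at 4 months. Median centring took both below the call (limma adjusted p = 0.0687 in wt and 0.109 in ko), as did the lower array set alone (0.212 and 0.156, adjusted p). In wt it was also lost without the intensity trend (limma adjusted p = 0.0619), with only the compared groups (0.108) and in the upper array set (0.119). The deviations of Ier2 from its group means had a Pearson r of -0.78 with the 3′ to 5′ actin ratio over the 12 arrays, and wt replicate 1 at 4 months, highest for that ratio, had the lowest Ier2 of its group. Without that array the difference in wt was 0.65 (limma adjusted p = 0.00864).

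Atf3, a stress-induced repressor of inflammatory genes, was near the filter. It gave 93.9, 119 and 119 in wt and 143, 81.9 and 106 in ko at 1 month, and 193, 132 and 184 in wt and 121, 203 and 154 in ko at 4 months. The older wt spleens were all above the younger ones, without passing the test (log2 difference 0.49, SE 0.26, limma adjusted p = 0.189), and the genotypes overlapped at both ages. Its difference between ko and wt at 4 months had a 95% interval of -0.63 to 0.46.

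Dusp1, the phosphatase of the p38 and JNK kinases, had a higher mean in ko at 4 months. So did Junb (log2 difference 0.37, with overlap), and the other 7 tested genes had a lower one. For Dusp1 this difference did not pass the test. Dusp1 gave 2533, 2736 and 3014 in wt and 2630.2, 2790.2 and 3134 in ko at 1 month, where the genotypes overlap. At 4 months it gave 2591, 2221 and 2384 in wt and 3486, 2786 and 3530.2 in ko. All 3 ko spleens were above all 3 wt spleens at 4 months. The log2 difference was 0.44 (SE 0.14), with an unadjusted p of 0.00599 that did not hold after adjustment (limma adjusted p = 0.121), and only weighting the arrays by quality brought a call (limma adjusted p = 0.0472). The difference was 0.22 within the lower array set and 0.54 within the upper one. The change from 1 to 4 months was 0.39 (SE 0.20, limma adjusted p = 0.603).

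Of the 8 other dual specificity phosphatases tested, 0 were called by limma between ko and wt at either age. An unadjusted p under 0.05 was found for 2 at 1 month and 1 at 4 months, against 16.9% and 16.8% of all genes. Between the ages, 24.1% of all genes were called in wt and 26.6% in ko. With age in wt, Dusp6, a phosphatase of ERK, rose (0.62, SE 0.15, limma adjusted p = 0.00908), as did Dusp16 (0.81, limma adjusted p = 0.0414), and Dusp8 fell (-1.60, limma adjusted p = 0.0101). In ko, Dusp6 (0.67, limma adjusted p = 0.00514) and Dusp2 (0.70, limma adjusted p = 0.00843) rose and Dusp8 fell (-1.16, limma adjusted p = 0.0475). Of these, the calls for Dusp6 in both genotypes and for Dusp8 in wt held whichever array was left out. That for Dusp2 was lost without ko replicate 3 at 1 month or ko replicate 1 at 4 months (limma adjusted p of 0.0504 and 0.0519). Those for Dusp16 in wt and Dusp8 in ko held in only 5 and 6 of the 12 fits with 1 array left out, with limma adjusted p of up to 0.197 and 0.234.

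Ccn1 was the only one of the 9 genes called lower with age, and this was in ko. On its brightest probe set, ko spleens gave 399.9, 522 and 410.2 at 1 month and 165, 195 and 202 at 4 months. The older ko spleens lie far below the younger ones and are close to each other (187 ± 19.2 against 444 ± 67.9, SD, n = 3). The fall was 2.16-fold (log2 difference -1.11, SE 0.22, limma adjusted p = 0.00217) and was called in every one of 27 alternative settings. In wt the signals were 323, 359.5 and 201 at 1 month and 470.0, 297 and 422 at 4 months, which overlap (0.40, SE 0.22, limma adjusted p = 0.212).

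Between genotypes, Ccn1 was higher in every ko spleen than in any wt spleen at 1 month (log2 difference 0.57, SE 0.22, limma adjusted p = 0.232), and by 0.34 without wt replicate 3 (limma adjusted p = 0.342). At 4 months it was lower in every ko spleen, 1.93-fold (-0.95, SE 0.22, limma adjusted p = 0.0334). The call at 4 months was lost without ko replicate 1 (limma adjusted p = 0.135), 2 (0.0896) or 3 (0.103) and without wt replicate 1 (0.132) or 3 (0.117), and the log2 difference stayed between -1.13 and -0.82. Within the lower array set it was -1.0 and within the upper one -0.92, called in neither (limma adjusted p = 0.169 and 0.253). It was also lost without a filter (limma adjusted p = 0.0652), without the intensity trend (0.0698) and with only the compared groups (0.0556). The change of the genotype difference between the ages was -1.52 (SE 0.31), with an unadjusted p of 0.000172 and a limma adjusted p of 0.13, where 0.0568% of all genes were called. Without wt replicate 2 at 4 months, the spleen with the pancreas genes, it was called (limma adjusted p = 0.027). In that fit 0.34% of all probe sets were called, in place of 0.0481%. No other fit with 1 array left out called this change (limma adjusted p of 0.0902 to 0.366).

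The other Ccn1 probe sets followed the same order of groups in ko. The second brightest gave 132, 167 and 135 in wt and 229, 480.4 and 488 in ko at 1 month, and 330.1, 168 and 410.2 in wt and 104, 135 and 172 in ko at 4 months. Its log2 difference was 1.23 at 1 month (SE 0.31, limma adjusted p = 0.089) and -0.93 at 4 months (SE 0.31, limma adjusted p = 0.137), and it fell with age in ko (-1.30, SE 0.31, limma adjusted p = 0.00622). The genotypes overlap at 4 months on this probe set through wt replicate 2 at 168. The change of the genotype difference was -2.15 (SE 0.43, limma adjusted p = 0.111, and 0.013 without wt replicate 2 at 4 months). Without any other single array it was not called (limma adjusted p of 0.0647 to 0.355).

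The third passed the filter only through the 3 ko spleens at 1 month and therefore had to differ there, so it is given with no test. It gave 126, 159 and 125 in those spleens and between 20.1 and 83 in the other 9. The fourth, under the filter, gave 97.9, 130.4 and 100.3 in ko at 1 month and between 6.79 and 70.4 in the other 9. On both probe sets with a tested difference at 1 month, the brightest and the second, the ko spleens of that age were above the wt spleens. Spleen stroma markers, from a cell type that makes Ccn1, had summed signals of 10942 to 17822 in wt and 10224 to 10608 in ko at 1 month, and of 11212 to 13766 in wt and 7923 to 10391 in ko at 4 months. Endothelial markers summed to 4294 to 4637 and 3306 to 3680 at 1 month and to 5305 to 5696 and 5760 to 6607 at 4 months, in wt and ko. The ko spleens at 1 month had the lowest endothelial sums. On the brightest probe set their group had the highest Ccn1 mean (444, beside 396 in wt at 4 months), though single spleens of these groups overlap. The stroma sums of the ko spleens lay below those of the wt spleens at both ages. Ccn1 on the brightest probe set was higher in ko at 1 month and lower at 4 months. The part of stromal and endothelial cells in the Ccn1 values was not tested.

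**Figure D5:**
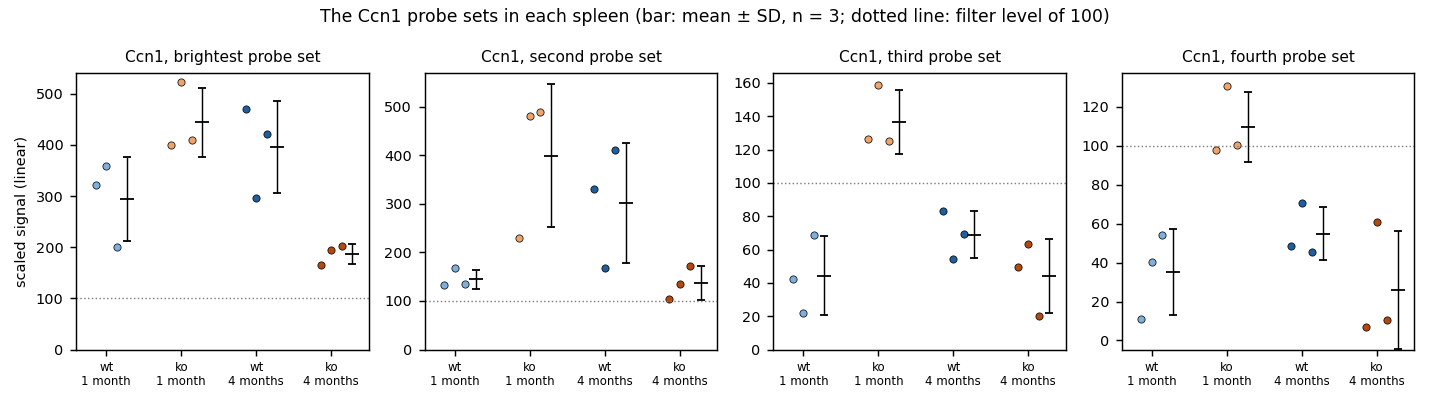
Scaled signal (linear, each panel with its own axis) of the 4 Ccn1 probe sets in the 12 spleens; points are arrays, bars the mean ± SD of 3, and the dotted line the filter level of 100. On the 2 brighter probe sets the 3 ko spleens at 1 month lie above the 3 wt spleens of that age and above the 3 ko spleens of 4 months; the third reached the dotted line only in the ko spleens at 1 month, so that its order was set by the filter, and the fourth was not tested.

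The genes differed in how much mice of a group varied. The within-group SD of Jun was 0.43 on the log2 scale, at percentile 95.9 among 1000 probe sets of like level, and that of Fos was 0.39 (percentile 90.1) and of Junb 0.36 (percentile 88.6). Dusp1 (0.14, percentile 20.8), Egr2 (0.20, percentile 14.9), Atf3 (0.26, percentile 21.4) and Ier2 (0.18, percentile 43.6) varied less between mice of a group. Egr1 (0.24) and Ccn1 (0.28) lay at percentiles 66.6 and 57.7. These values are for 1 probe set a gene. The second Jun probe set varied less than the brighter one (0.33, percentile 78.2). The dimmer Egr2 probe set (0.53, percentile 89.6) and the second Ccn1 probe set (0.44, percentile 88.8) varied more than the brighter ones and more than Jun.

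Across the 12 arrays the genes did not vary as 1 group. The correlation of a gene with the mean standardised profile of all 9, which includes the gene itself, was 0.91 for Jun, 0.74 for Ier2, 0.69 for Fos and 0.65 for Atf3. It was 0.53 for Junb, 0.51 for Egr2, 0.39 for Egr1, 0.07 for Ccn1 and -0.30 for Dusp1. The median absolute r of the other genes, which are not part of that profile, was 0.49. The values of Junb, Egr2 and Egr1 lay near that level, although their own part in the profile raises them. Egr1 and Egr2 had a Pearson r of 0.76 with each other and Fos and Jun of 0.73. Within groups, the deviations of Dusp1 and Junb had an r of 0.82 and those of Egr1 and Fos of -0.69. All these values share the same 12 arrays and their scaling and are descriptions.

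Of 12317 other genes, those most like the mean profile of the 9 over the 12 arrays were Bcl6 (Pearson r 0.98), Mettl25 (0.95), Gzmb (0.95), Tnfaip8 (0.94) and Ccdc88a (0.94). Bcl6, a repressor of germinal centre B cells and follicular helper T cells, gave 442, 752 and 719.6 in wt and 527, 474 and 511 in ko at 1 month. At 4 months it gave 1233, 1109 and 1623 in wt and 691, 728 and 796 in ko, highest in wt at 4 months like Jun. The genes most like Fos were Zfp946, Rab39 and Ahsa2 (each r of 0.89), and those 3 are likewise highest in wt replicate 3 at 4 months (3869, 686 and 4668). Ahsa2 is related to an activator of the Hsp90 chaperone. Those most like Ccn1 were C1galt1c1 (0.86), Cct8 (0.84), a subunit of the cytosolic chaperonin, and Mcts1 (0.83). Cct8 gave 5522, 5574 and 5039.7 in ko at 1 month and 3444, 3759.6 and 3688 in ko at 4 months.

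Of 17 other AP-1, EGR and NR4A genes, 14 were tested (Fosl1, Maff and Egr4 were not), and 0 were called by limma between genotypes at either age. An unadjusted p under 0.05 was found for 3 at 1 month and 5 at 4 months, against 16.9% and 16.8% of all genes. With age in wt 3 of the 14 rose and 0 fell, against 12.6% of all genes rising. Nr4a1, an orphan nuclear receptor induced by antigen receptors, rose in both genotypes (0.87, SE 0.17, limma adjusted p = 0.00228 in wt, and 0.94, SE 0.17, limma adjusted p = 0.00126 in ko), whichever array was left out. Its signals were 504, 577 and 657 in wt and 527, 496 and 526 in ko at 1 month, and 958, 899 and 1441 in wt and 1048, 980.1 and 1031 in ko at 4 months. Batf (0.84, limma adjusted p = 0.0125) and Fosl2 (0.81, limma adjusted p = 0.0352) rose in wt, and were not called without wt replicate 3 at 4 months (limma adjusted p = 0.0597 and 0.158) or wt replicate 1 at 1 month (0.069 and 0.164). Batf3, a factor of dendritic cells, rose in ko (0.93, limma adjusted p = 0.00571). Over both ages Egr3 was lower in ko, and Mafg (0.45, limma adjusted p = 0.046) and Jdp2 (0.54, limma adjusted p = 0.0488) were higher, each called in only 3 of the 12 fits with 1 array left out (limma adjusted p of up to 0.13 and 0.145, both without ko replicate 3 at 1 month).

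Of 43 further early response genes, 39 were tested. Between genotypes 0 were called by limma at 1 month (8 at an unadjusted p under 0.05, against 16.9% of all genes). At 4 months 2 were called higher and 0 lower in ko, against 2.48% and 0.479% of all genes. Ppp1r15a, which restores translation after stress, gave 1372, 2374 and 1583 in wt and 4173, 3929 and 4382 in ko at 4 months (1.25, SE 0.22, limma adjusted p = 0.00768). Gadd45a, a growth arrest gene, gave 727, 709 and 742 in wt and 1009, 1422 and 1353 in ko (0.76, SE 0.14, limma adjusted p = 0.0114), and was not called without ko replicate 2 (limma adjusted p = 0.0637) or 3 (0.0796). Both fell with age in wt, by 1.52 and 1.44 on the log2 scale (limma adjusted p = 0.000169 and 6.14e-06).

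With age, 8 of the 39 rose and 3 fell in wt, and 10 rose and 1 fell in ko, with list medians of 0.33 and 0.40 beside 0.08 and 0.09 over all genes. These counts, 11 of 39 in each genotype, are near the shares of all genes called with age (24.1% in wt and 26.6% in ko). Zfp36, which destabilises the messages of cytokines and of early genes, rose in both (0.89, SE 0.14, limma adjusted p = 0.000372 in wt, and 1.02, SE 0.14, limma adjusted p = 0.000203 in ko). Ier5 rose in both as well (0.66 in wt and 0.56 in ko, limma adjusted p = 0.00179 and 0.00517). Ccn2, a matrix gene of the same family as Ccn1, rose in both, by 0.73 in wt (SE 0.17, limma adjusted p = 0.0069) and by 1.25 in ko, where Ccn1 fell (SE 0.17, limma adjusted p = 0.000193). It gave 1567, 1751 and 1405 in ko at 1 month and 3304, 3763 and 4289.9 in ko at 4 months. Id3 also rose in ko (0.88, limma adjusted p = 0.000709), and Gadd45a fell there (-0.91, limma adjusted p = 0.000494). Over both ages 3 were called higher and 5 lower in ko, against 3.89% and 2.45% of all genes. Plk2, a kinase of the early response, was lower in all 6 ko spleens than in any wt spleen (-0.72, limma adjusted p = 0.006), with 377, 589 and 425 in wt and 270.5, 261 and 229.7 in ko at 1 month and 601, 539.6 and 505 in wt and 298, 334 and 374 in ko at 4 months.

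Of 23 kinases and factors that act upstream of the 10 genes, 18 had a tested probe set, and 0 were called by limma between genotypes at either age. An unadjusted p under 0.05 was found for 2 at 1 month and 4 at 4 months, against 16.9% and 16.8% of all genes. With age 0 of the 18 were called by limma in ko, against 26.6% of all genes (5 at an unadjusted p under 0.05, against 39.3%). In wt 4 of the 18 rose with age, against 12.6% of all genes. These were Mrtfa, a coactivator of serum response factor (1.16, limma adjusted p = 0.0114), Nab2 (0.88, limma adjusted p = 0.0141), the JNK gene Mapk8 (0.61, limma adjusted p = 0.0296) and the ERK kinase Map2k1 (0.38, limma adjusted p = 0.0487). All 4 calls were lost without wt replicate 1 at 1 month (limma adjusted p of 0.0665 for Mrtfa, 0.0622 for Nab2, 0.153 for Mapk8, and 0.124 for Map2k1) and without wt replicate 1 at 4 months (0.0609, 0.056, 0.0689 and 0.113, in the same order, adjusted p). The change of the genotype difference between ages was called by limma for 0 of the 18, and 0 had an unadjusted p under 0.05. Over all genes these shares were 0.0568% and 9.38%.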

How the data were processed

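Total RNA of 12 spleens was measured on 1-colour arrays of 45101 probe sets. The deposited values are signal intensities from MAS5, per the submitters' processing notes, and each array's 2% trimmed mean was already 500. Aligners and builds do not apply. Each array was rescaled to that mean, an offset of 32 was added and log2 taken, which understates changes of dim probe sets. Probe sets with a signal of 100 on at least 3 of 12 arrays were tested with limma 3.58.1 in R 4.3.3 (4 group means, intensity trend, 8 residual degrees of freedom), with Benjamini-Hochberg adjustment over 27041 probe sets. Detection calls were not used here. Symbols came from the platform annotation, updated through Entrez ID: 34958 probe sets had 1 symbol, 932 several and 9211 none. The scripts were tested on simulated data.

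Every member is reported. Of the further lists, at most 4 genes called in a comparison were named, besides genes described for comparison with a member. In several comparisons fewer or none were named, so a gene without a name here may still have been called. Over both ages 3 of 19 heat shock genes were called lower and 1 of 8 dual specificity phosphatases higher in ko, against 2.45% and 3.89% of all genes. The members and lists were chosen with earlier results of these data known, and the comparison over both ages was added after the values were seen. Alternatives were quantile normalization, median centring, other offsets and filters, array weights, no or robust variance trend, fits without each array, and blocks for array set and replicate number. Each array is 1 mouse, so 3 per group limits the precision. Replicate numbers did not pair the mice: correlations of deviations between same-numbered arrays were -0.20 to 0.21.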

Additional observations from a re-analysis of the deposited data

Results flagged for a closer look

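The genotype difference of Ccn1 on its brightest probe set pointed in opposite directions at the 2 ages, with every ko spleen above every wt spleen at 1 month and below every wt spleen at 4 months. The change of the log2 difference was -1.52 (SE 0.31), and its limma adjusted p of 0.13 missed the threshold. The unadjusted p was 0.000172, and the limma adjusted p was 0.027 without wt replicate 2 at 4 months. Without any other single array the limma adjusted p was 0.0902 to 0.366. In the fit without wt replicate 2, 0.34% of all probe sets were called for this change, in place of 0.0481%. Its second brightest probe set gave -2.15 (SE 0.43, limma adjusted p = 0.111). This pattern was not particular to Ccn1. The heat shock genes Hspa1b, Hspa1a and Hsph1 reversed likewise without overlap, while Dnajb1 and Dnaja1 overlapped at 1 month. Of 19 heat shock genes 2 were called lower for this change, against 0.0568% of all genes called. They were Hspa1b (-5.50, limma adjusted p = 0.00747) and Dnajb1 (-1.26, limma adjusted p = 0.0445).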

How the results depend on the processing

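Of 3153 recomputed values for 116 results, 2696 kept their direction and side of the threshold, 437 lost the call, 19 gained one and 1 reversed (Dnajb4 with age in wt, 0.13 in the lower array set alone). The count of genes called between genotypes at 1 month was 0 under every alternative. At 4 months the 1 call became 0 without a filter, without the intensity trend, with only the compared groups or in the upper array set, and 2 with array weights, an adjusted p under 0.10 or the array set as a block, while in the lower array set the 1 call was Jun and not Ccn1; leaving out single arrays gave 0 to 1. For the change between ages the range was 0 to 1. With age in wt the 2 calls became 1 with median centring, without the trend or with only the compared groups, and 1 to 3 without single arrays. With age in ko the 3 calls became 1 with median centring or the lower array set, and 1 to 3 without single arrays. Over both ages the 2 calls became 1 without the trend and 0 in the lower array set, and 0 to 2 without single arrays. With the replicate block, Junb in wt was called (limma adjusted p = 0.0416), Ccn1 at 4 months had a limma adjusted p of 0.049, and the counts were 0, 1, 0, 3, 3 and 2; same-numbered arrays correlated above 0.1 in 4 of 18 pairs and others in 8 of 36. Median centring moved the median over all probe sets between genotypes at 1 month from -0.04 to 0.12. The causes were not tested, beyond fewer arrays in subsets. Fosb, Atf3 and the 2 dimmer Ccn1 probe sets lay near or under the filter, where background limits the precision.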
